A study of Mus musculus with 2 samples.

Results

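The glutathione, thioredoxin and peroxide defence genes of NIH3T3 cells, an established mouse embryonic fibroblast line, were taken from the deposited expression table by gene symbol. The 58 members, of 22838 genes in the table, were the named genes of glutathione synthesis, the thioredoxin and glutaredoxin systems, superoxide dismutases and catalase, Nqo1, Osgin1, Ephx1 and Srxn1, and the symbols of the Gpx, Prdx, Gst and Mgst families that end in a number, which leaves out Prdx6b. Messenger RNA was sequenced from 1 culture treated with 100 µM ALA for 16 h and from 1 untreated culture. ALA is not spelled out in the labels. In studies of heme it stands for aminolevulinic acid, a heme precursor, and the series title concerns SRRD, heme synthesis and circadian rhythms. Levels are FPKM, fragments scaled to transcript length and sequencing depth, so they can be compared between genes. Since each condition is 1 library, differences between cultures have no measured spread, and neither tests nor p-values are given. In such bulk RNA, fewer cells of a kind and less RNA per cell cannot be told apart.

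Glutathione is a small thiol peptide made in a pair of ATP-dependent steps. Glutathione peroxidases spend it to reduce peroxides, glutathione transferases attach it to reactive compounds, and glutathione reductase regenerates it with NADPH. Thioredoxin is a small protein with the same kind of thiol chemistry. It is kept reduced by thioredoxin reductases and supplies peroxiredoxins, the most abundant peroxide-reducing proteins of most cells. Many of these genes are known targets of NRF2, a transcription factor that pairs with small MAF proteins at antioxidant response elements, and BACH1, a heme-binding repressor, competes for the same elements.

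Of the 58 members, 44 had a mean of at least 1 FPKM over both libraries and are called measured. The log2 ratios compare ALA with untreated after 1 FPKM is added to both values. This makes the ratios of genes with low levels too small, and 1.5-fold is counted on that scale. At least 1.5-fold higher with ALA were 6 of 44 measured members (13.6%), against 5.90% of all 10929 measured genes, and 6 (13.6%) were at least 1.5-fold lower, against 7.16%. The higher ones were Gss, Gstz1, Glrx2, Gpx7, Gclm and Gsta3, and the lower ones Gsto2, Gstp2, Prdx5, Mgst1, Gstm5 and Txnip. At 2-fold, 0 members were higher, against 1.49% of measured genes, and 1, Gsto2, was lower, against 2.01%. The log2 ratio was above 0 in 29 members and below 0 in 15, while 47.8% of measured genes were above 0 and 52.2% below, and the median was 0.09 against -0.02 over all measured genes. Scaling both libraries to the same FPKM total shifts the log2 ratios of well-expressed genes up by about 0.08 and those of low genes by less, after which 8 members were 1.5-fold higher and 5 lower, beside 854 and 643 of all measured genes in place of 645 and 782. On the deposited scaling, the summed FPKM of all 58 members was 5480.4 with ALA and 5483 untreated, so the differences among members nearly cancelled there. The FPKM totals of the libraries were 512324 with ALA and 540963 untreated, so at equal totals the members' sum is higher with ALA.

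**Figure D1:**
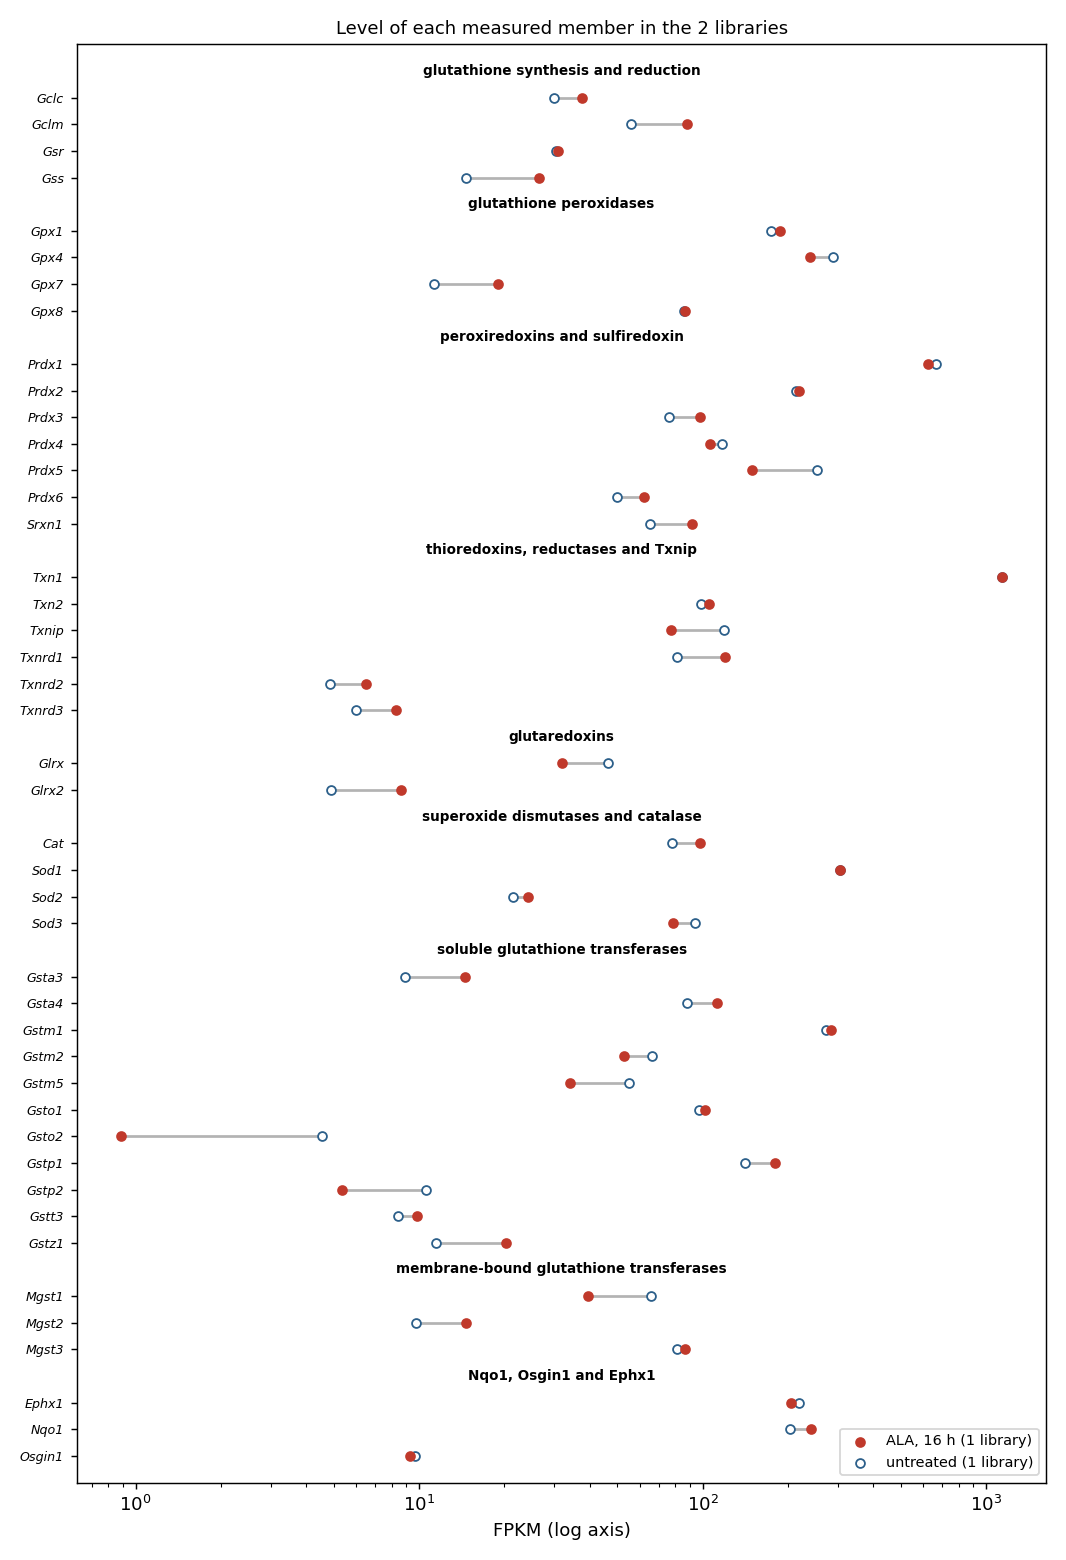
FPKM of the 44 measured members in the ALA library (filled red) and the untreated library (open blue), 1 library each, on a log axis and by role. Most pairs lie close together on a scale that runs from 0.886 FPKM (Gsto2 with ALA) to 1141 FPKM (Txn1 untreated), and the widest gap is that of Gsto2.

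Both libraries carried the fibroblast identity that the labels state. Of 10 fibroblast markers 9 exceeded 1 FPKM in each library and 1, Lum, was listed at 0 in both, and their summed level was 11257 FPKM with ALA and 12880 FPKM untreated. Epithelial markers summed to 0.958 FPKM with ALA and 1.23 FPKM untreated, with Cldn4, Epcam and Krt18 listed at 0, and all 4 hepatocyte markers were listed at 0. Of 6 macrophage markers 4 exceeded 1 FPKM with ALA and 2 untreated, none was at 0 in both, and their sums were 17.9 FPKM with ALA and 29.9 FPKM untreated. Whether this difference has a part in any member's value was not tested. Depth, estimated from the spacing of low FPKM values, was about 31400000 reads with ALA and 22100000 untreated. From it came approximate reads per member and 95% counting intervals, which cover counting error only and not variation between cultures.

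The promoters were searched for a loose form of the antioxidant response element core, TGA, then any 4 bases, then GCA. The known core prefers certain bases after TGA, so a match need not be such an element. It need not end in A, so the search can also miss one. The AP-1 type element TGAGTCA, also searched for, overlaps the loose form in some genes. In Srxn1, TGAGTCAGCG lacks the final A of the loose form and is marked only as TGAGTCA. Promoters were found for 52 members and not for Prdx6, Gsta4, Gclc, Gstt2, Sod3 and Gsr. Of the 39 measured members with a RefSeq promoter (build GRCm38.p6, 250 bases before to 50 bases after the start, either strand), 10 (25.6%) held the loose form and 8 (20.5%) held TGAGTCA. Among all 8360 measured genes with a promoter the shares were 12.2% and 4.47%. Members and measured genes were counted if any of their promoters held the motif. Counted per promoter, the shares over all 32851 RefSeq promoters were 13.0% and 5.20%. The 10 members with the loose form had a median log2 ratio of 0.38, with 6 above 0 and 4 below, the other measured members with a promoter had 0.07, and all measured genes with the motif had -0.02. The 8 members with TGAGTCA had a median of -0.07, with 3 above 0 and 5 below. The other measured members with a promoter had 0.09, and all measured genes with TGAGTCA had -0.03. Both sets of members hold Gstp1 and Gstp2, which share sequence. The window is short, so a member without a match in it may hold one farther from the start. Gclm and Nqo1 are among the members without a match to either motif, so the medians do not compare genes with and without such elements. The 250 bases before the start are printed for 6 members with both outcomes, with the letters of either motif, on either strand, in capitals. Txnrd1, Srxn1, Gsta3 and Gstp1 were higher with ALA, and Gstm5 and Gstp2 lower, Gstp2 with reads that cannot be told from those of Gstp1 with certainty. Txnrd1 has several starts in the RefSeq table, and the window with the motif is shown.
Txnrd1: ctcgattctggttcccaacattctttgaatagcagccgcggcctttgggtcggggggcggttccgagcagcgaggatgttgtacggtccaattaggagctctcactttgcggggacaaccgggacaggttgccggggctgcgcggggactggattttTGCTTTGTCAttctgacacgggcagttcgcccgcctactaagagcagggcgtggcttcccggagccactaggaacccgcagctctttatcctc
Srxn1: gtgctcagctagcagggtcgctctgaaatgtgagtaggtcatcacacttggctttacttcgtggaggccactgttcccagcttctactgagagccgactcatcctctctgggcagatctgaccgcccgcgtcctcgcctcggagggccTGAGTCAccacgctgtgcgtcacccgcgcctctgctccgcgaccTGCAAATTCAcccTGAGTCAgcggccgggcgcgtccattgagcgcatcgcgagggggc
Gsta3: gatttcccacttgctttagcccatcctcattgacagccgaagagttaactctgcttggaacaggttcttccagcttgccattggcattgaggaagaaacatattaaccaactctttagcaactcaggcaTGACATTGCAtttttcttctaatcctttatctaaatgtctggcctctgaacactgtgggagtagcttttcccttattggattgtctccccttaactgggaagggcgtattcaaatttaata
Gstm5: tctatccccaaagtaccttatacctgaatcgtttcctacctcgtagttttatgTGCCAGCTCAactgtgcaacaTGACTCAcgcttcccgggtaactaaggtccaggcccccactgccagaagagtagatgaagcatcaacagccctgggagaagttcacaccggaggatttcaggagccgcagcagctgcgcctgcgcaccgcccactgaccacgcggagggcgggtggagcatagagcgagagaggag
Gstp1: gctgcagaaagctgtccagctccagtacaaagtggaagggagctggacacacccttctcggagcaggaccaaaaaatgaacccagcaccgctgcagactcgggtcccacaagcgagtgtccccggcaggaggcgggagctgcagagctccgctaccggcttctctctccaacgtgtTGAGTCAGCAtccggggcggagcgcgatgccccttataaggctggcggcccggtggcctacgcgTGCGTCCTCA
Gstp2: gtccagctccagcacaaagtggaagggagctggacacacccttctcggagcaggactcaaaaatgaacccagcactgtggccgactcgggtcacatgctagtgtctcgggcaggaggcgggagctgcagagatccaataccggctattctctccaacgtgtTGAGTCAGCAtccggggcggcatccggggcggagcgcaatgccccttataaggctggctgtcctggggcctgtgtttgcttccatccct

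These windows are chr10:82858956-82859205 on the plus strand for Txnrd1, chr2:152105274-152105523 on the plus strand for Srxn1 and chr1:21240335-21240584 on the plus strand for Gsta3. Those of Gstm5, Gstp1 and Gstp2 are chr3:107895604-107895853 on the plus strand, chr19:4037913-4038162 on the minus strand and chr19:4042222-4042471 on the minus strand. In Txnrd1 the match is TGCTTTGTCA, the loose form read on the other strand, with its first letter 93 bases before the start. Srxn1 holds TGAGTCA at 102 and 45 bases before the start, beside TGCAAATTCA at 58. The tandem genes Gstp1 and Gstp2 both hold TGAGTCAGCA, which contains both motifs, at 74 and 89 bases before their starts, and their log2 ratios were 0.35 and -0.87. The genes share sequence, and their sum, most of it from Gstp1, had a log2 ratio of 0.29. A match is a description of letters and no evidence of binding.

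Glutathione synthesis and reduction was the role in which all members had log2 ratios above 0. One of them, Gsr, was at 0.02 with a counting interval that included 0. Gss encodes glutathione synthetase, the second enzyme of the pathway, and had 26.6 FPKM with ALA, against 14.7 FPKM untreated. This 1.81-fold difference was the highest log2 ratio of any member, 0.81 with a counting interval of 0.68 to 0.95, and 2.62% of measured genes had a higher one. Gss occupies chr2:155563181-155592810 on the minus strand. It overlaps Acss2 on the other strand over 6.68% of its exon bases, and 11.3% of its read-length stretches occur in other genes. Acss2 was at 8.45 FPKM with ALA and 9.92 FPKM untreated, and the sum of both genes had a log2 ratio of 0.49, under 1.5-fold. Only 4.62% of the stretches of Gss occur in Acss2, so this sum, which adds all of Acss2, does not correct for shared reads.

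Gclm encodes the modifier subunit of glutamate-cysteine ligase, the rate-limiting enzyme, and Gclc its catalytic subunit. Gclm had 88.3 FPKM with ALA and 55.7 FPKM untreated, a log2 ratio of 0.66 (counting interval 0.62 to 0.70). The gene model behind this interval ends beyond the deposited region of Gclm, so the interval may be too narrow. Gclc had 37.6 FPKM with ALA and 29.9 FPKM untreated, a log2 ratio of 0.32 (0.25 to 0.39). The modifier transcript therefore stood at 2.35 times the catalytic transcript with ALA, against 1.86 times untreated. Gsr, the NADPH-dependent glutathione reductase, had 30.9 FPKM with ALA and 30.4 FPKM untreated. The counting interval of Gsr, -0.06 to 0.11, included 0, so a difference was not detectable at this depth. Together the 4 genes summed to 183 FPKM with ALA and 131 FPKM untreated, and their median log2 ratio was 0.49.

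Of the 8 glutathione peroxidase genes 4 were measured, and Gpx2, Gpx3, Gpx5 and Gpx6 were listed at 0 in both libraries. Gpx7, a cysteine-type peroxidase of the endoplasmic reticulum, had 18.9 FPKM with ALA and 11.3 FPKM untreated, a 1.67-fold difference (log2 ratio 0.70, counting interval 0.52 to 0.87). Gpx8, its membrane-anchored relative in the same compartment, had 87.0 FPKM with ALA and 86.1 FPKM untreated. The pair therefore stood at 4.60 Gpx8 transcripts per Gpx7 transcript with ALA, against 7.63 untreated. Gpx1, the abundant selenium-containing peroxidase for hydrogen peroxide, had 188 FPKM with ALA and 174 FPKM untreated (log2 ratio 0.11).

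Gpx4, which reduces lipid peroxides in membranes and guards against ferroptosis, was the most abundant of the family and was on the lower side. It had 239.9 FPKM with ALA and 287.6 FPKM untreated, a log2 ratio of -0.26 (counting interval -0.31 to -0.21). The deposited region that holds Gpx4 on chromosome 10 was given to 47 genes of the table, and 36.6% of its read-length stretches also occur in the retrocopy Gpx4-ps2, which was not analysed here. The family sum was 533.7 FPKM with ALA and 559 FPKM untreated. Gpx4 took 44.9% of that sum with ALA and 51.4% untreated.

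The peroxiredoxins formed the largest peroxide-reducing family by level, with 1257 FPKM in total with ALA and 1374 FPKM untreated. Prdx1, the main cytosolic member, made up 49.6% of that total with ALA and 48.4% untreated, at 623 FPKM with ALA and 664 FPKM untreated. Prdx2, also cytosolic, had 219 FPKM with ALA and 213 FPKM untreated, and the secretory pathway member Prdx4 had 106 FPKM with ALA and 117 FPKM untreated. The log2 ratios of these 3 lay between -0.13 and 0.04, and Prdx1 and Prdx2 share 11.5% and 13.6% of their stretches with other genes.

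The mitochondrial members went opposite ways. Prdx5, found in mitochondria, peroxisomes and cytosol, had 149 FPKM with ALA and 254 FPKM untreated, a log2 ratio of -0.77 (counting interval -0.82 to -0.72). Prdx3, the peroxiredoxin confined to mitochondria, had 98.0 FPKM with ALA and 76.3 FPKM untreated, a log2 ratio of 0.36 (0.29 to 0.43). Prdx5 overlaps Trmt112 on the other strand of chromosome 19 over 19.1% of its exon bases. Trmt112 was at 71.6 FPKM with ALA and 71.5 FPKM untreated, and the sum of both genes had a log2 ratio of -0.56, under 1.5-fold. Since 16.2% of the stretches of Prdx5 occur in Trmt112, this sum, which adds all of Trmt112, does not correct for shared reads. Prdx5 alone accounted for 11.9% of peroxiredoxin FPKM with ALA and 18.5% untreated.

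Prdx6, which uses glutathione for its reduction and also acts as a phospholipase, had 61.9 FPKM with ALA and 49.8 FPKM untreated, a log2 ratio of 0.31. Srxn1 encodes sulfiredoxin, which repairs overoxidised peroxiredoxins at the expense of ATP. It had 91.4 FPKM with ALA and 65.1 FPKM untreated, a log2 ratio of 0.48 (counting interval 0.43 to 0.54). Relative to Prdx1, Srxn1 stood at 0.147 with ALA and 0.0980 untreated, while 8.67% of measured genes had a higher ratio than Srxn1.

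In the thioredoxin system all reductases were on the higher side while the thioredoxins themselves barely differed. Txn1, cytosolic thioredoxin, was the most abundant member of all, with 1138 FPKM with ALA and 1141 FPKM untreated, and the sign of its log2 ratio changed with the scaling of the libraries. Txn2, the mitochondrial form, had 105 FPKM with ALA and 98.7 FPKM untreated. Txnrd1, the cytosolic selenoprotein reductase, had 120.4 FPKM with ALA and 81.4 FPKM untreated (log2 ratio 0.56, counting interval 0.51 to 0.61). Txnrd2, its mitochondrial counterpart, had 6.51 FPKM with ALA and 4.85 FPKM untreated (0.36, 0.16 to 0.57). Txnrd3, a reductase with an added glutaredoxin domain known mainly from testis, had 8.28 FPKM with ALA and 5.99 FPKM untreated (0.41, 0.24 to 0.58). The 3 counting intervals overlap, and whether the ratios of the reductases differ was not tested. The added 1 FPKM makes the ratios of the low genes Txnrd2 and Txnrd3 smaller than it makes that of Txnrd1. Txnrd1 was 18.5 times as abundant as Txnrd2 with ALA and 16.8 times untreated.

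Txnip encodes the protein that binds reduced thioredoxin and blocks it, and that also restrains glucose uptake. Txnip had 77.4 FPKM with ALA and 119 FPKM untreated, a log2 ratio of -0.62 (counting interval -0.66 to -0.57). With the libraries scaled to the same total it was the only called member that no longer reached 1.5-fold. It lies at chr3:96557957-96561883 on the plus strand and overlaps Gm15441 on the other strand over 19.4% of its exon bases. Gm15441 had 0.428 FPKM with ALA and 0.120 FPKM untreated, and the log2 ratio of the sum was -0.61. Transcripts of the inhibitor stood at 0.0680 of Txn1 with ALA and 0.104 untreated.

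The glutaredoxins, which use glutathione to remove it from protein thiols, differed in opposite directions. Glrx, the cytosolic form, had 31.9 FPKM with ALA and 46.5 FPKM untreated, a log2 ratio of -0.53 (counting interval -0.63 to -0.42). Glrx2, the mitochondrial form, had 8.61 FPKM with ALA and 4.91 FPKM untreated, a log2 ratio of 0.70. Glrx2 rests on about 157 reads with ALA and 63 untreated, and its counting interval of 0.34 to 1.06 was the widest among the members at least 1.5-fold higher. The summed level of both genes was 40.5 FPKM with ALA and 51.4 FPKM untreated, since Glrx is the more abundant.

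Catalase and the superoxide dismutases, which dispose of hydrogen peroxide and superoxide without thiols, showed small differences, and 0 of 4 reached 1.5-fold. Cat, the peroxisomal heme enzyme, had 97.8 FPKM with ALA and 78.1 FPKM untreated (log2 ratio 0.32, counting interval 0.27 to 0.37). Sod1, the cytosolic copper and zinc enzyme, had 306 FPKM with ALA and 304 FPKM untreated, and its interval of -0.05 to 0.07 included 0. Sod2, the mitochondrial manganese enzyme, had 24.3 FPKM with ALA and 21.5 FPKM untreated (0.17), with 23.3% of its stretches shared with other genes, mainly AC166110.4 and Rps6ka2. Sod3, the secreted form, had 78.3 FPKM with ALA and 93.9 FPKM untreated (-0.26).

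**Figure D2:**
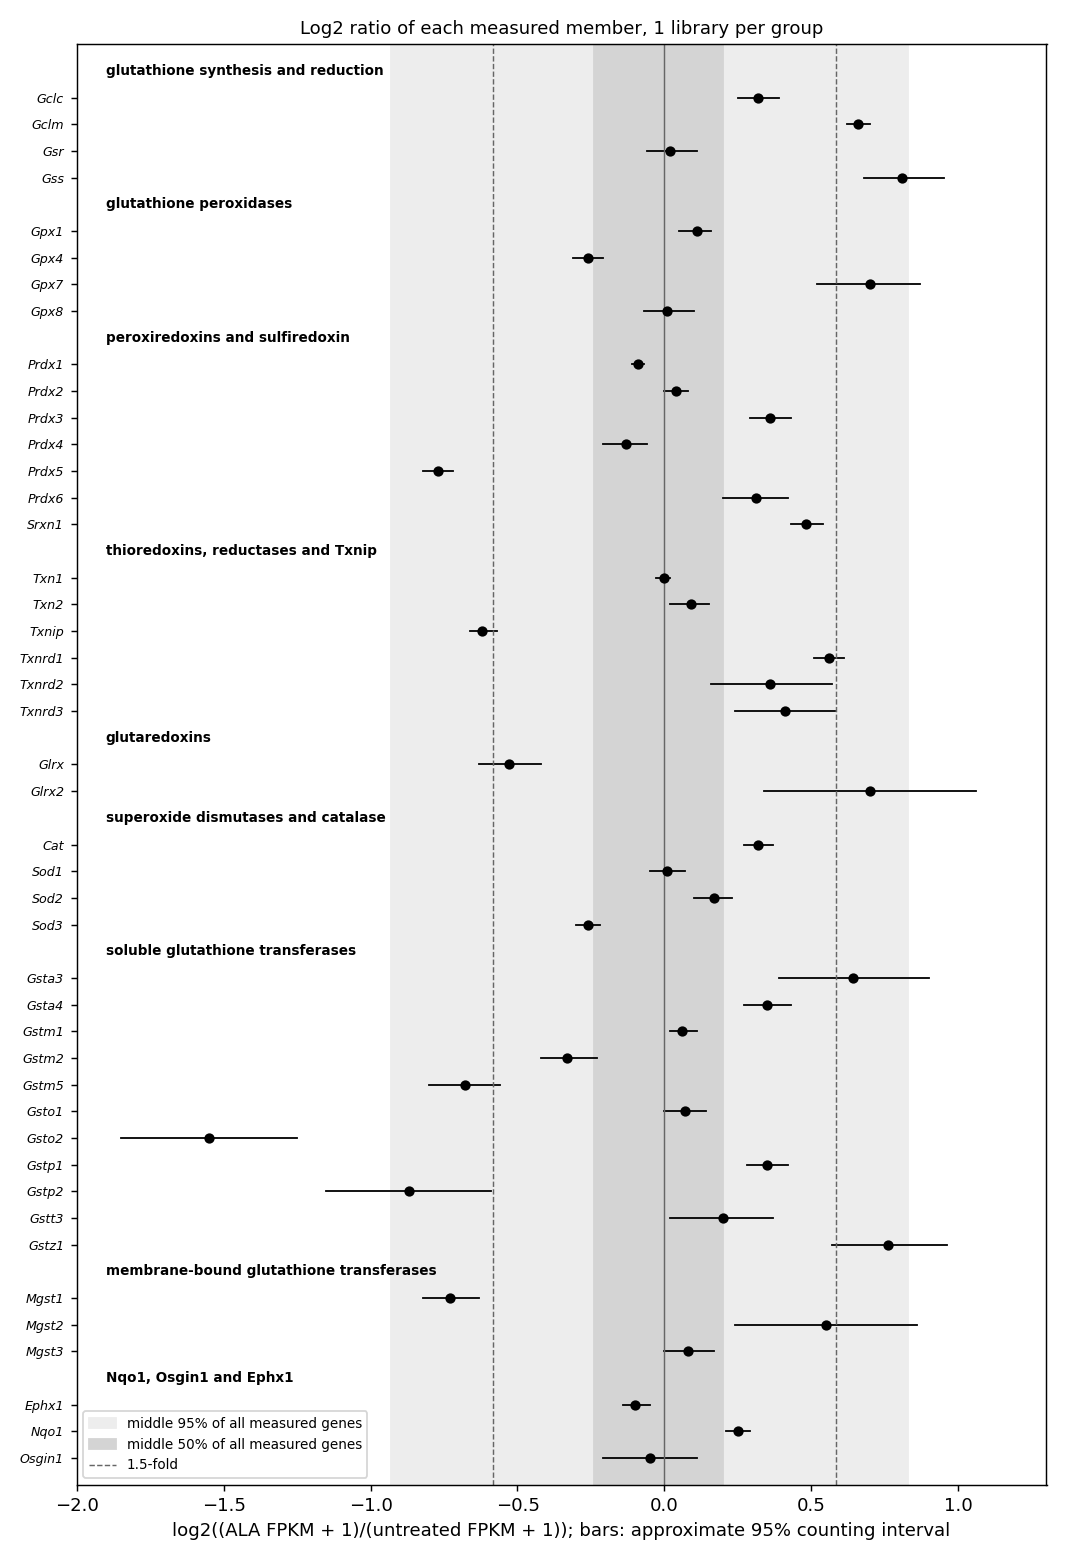
Log2 ratio of ALA over untreated, on the scale with 1 FPKM added, for each measured member, with approximate 95% counting intervals as bars and grey bands for the middle 50% and 95% of all measured genes. Only Gsto2 lies outside the wider band, which runs from -0.93 to 0.83. All 4 genes of glutathione synthesis and reduction lie on the right of 0, but the interval of Gsr includes 0.

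The 24 glutathione transferase genes, soluble and membrane-bound, summed to 957 FPKM with ALA and 922 FPKM untreated, with 14 of them measured. Their make-up was dominated by few genes: Gstm1 held 29.6% of the sum with ALA and 29.4% untreated, and Gstp1 18.8% with ALA and 15.3% untreated. Among the 11 measured soluble members the log2 ratios ran from -1.55 to 0.76 with a median of 0.07, and 2 were at least 1.5-fold higher and 3 lower. The 10 soluble members below the filter were Gsta1, Gsta2, Gstk1, Gstm3, Gstm4, Gstm6, Gstm7, Gstt1, Gstt2 and Gstt4, with values from 0 to 0.774 FPKM. Of these Gstk1, Gstm4 and Gstt4 were listed at 0 in both libraries. Gsta1 shares most of its stretches with Gm3776, Gsta2 shares with Gsta1, and Gstm3 with Gm8834 and Gstm1.

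Both measured alpha class members were on the higher side. Gsta4, which conjugates hydroxynonenal and other products of lipid peroxidation, had 112 FPKM with ALA and 88.1 FPKM untreated (log2 ratio 0.35, counting interval 0.27 to 0.43). Gsta3 had 14.5 FPKM with ALA and 8.90 FPKM untreated (0.64, 0.39 to 0.90), from about 337 reads with ALA and 146 untreated. Gstz1, of the zeta class, isomerises maleylacetoacetate in tyrosine breakdown. It had 20.2 FPKM with ALA and 11.5 FPKM untreated, a log2 ratio of 0.76 (0.57 to 0.96). Gstz1 overlaps Pomt2 on the other strand of chromosome 12 over 9.14% of its exon bases, and the sum with Pomt2, at 5.48 FPKM with ALA and 5.10 FPKM untreated, had a log2 ratio of 0.60.

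The mu class genes, whose enzymes conjugate epoxides and other electrophiles, lie side by side on chromosome 3 and did not share a direction. Gstm1 had 283.7 FPKM with ALA and 271 FPKM untreated (log2 ratio 0.06), Gstm2 had 52.8 FPKM with ALA and 66.4 FPKM untreated (-0.33), and Gstm5 had 34.0 FPKM with ALA and 55.0 FPKM untreated (-0.68). The counting interval of Gstm5, -0.80 to -0.56, did not overlap that of Gstm2, -0.42 to -0.23. Gstm1 shares 23.0% of its read-length stretches with other genes, mainly Gstm2-ps1 and Gstm3, and Gstm5 shares 13.9% of its exon bases with 4933431E20Rik, which was at 5.87 FPKM with ALA and 6.29 FPKM untreated. Gstm7, below the filter, had 0.0571 FPKM with ALA and 0.615 FPKM untreated, from about 2 and 19 reads.

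The tandem pi class genes on chromosome 19, whose Gstp1 product is a major cytosolic detoxifying enzyme, differed in opposite directions. Gstp1 had 180.2 FPKM with ALA and 141 FPKM untreated (log2 ratio 0.35, counting interval 0.28 to 0.42). Gstp2 had 5.35 FPKM with ALA and 10.6 FPKM untreated (-0.87, -1.15 to -0.59). Gstp2 shares 51.4% of its read-length stretches with Gstp1, so its reads cannot be assigned with certainty, and the sum of both genes, 186 FPKM with ALA and 152 FPKM untreated, had a log2 ratio of 0.29.

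The omega class held the member with the largest log2 ratio in size at the pseudocount used. Gsto2, a dehydroascorbate reductase that recycles vitamin C, had 0.886 FPKM with ALA and 4.53 FPKM untreated, 5.11-fold lower with ALA. Its log2 ratio was -1.55 (counting interval -1.85 to -1.25), and 0.412% of measured genes had a lower one. The ratio depends on the pseudocount, at -2.23 with 0.1 and -0.69 with 5, where Prdx5 at -0.75 was farther from 0. Gsto2 rests on about 36 reads with ALA and 128 untreated. Gsto2 lies at chr19:47865534-47886324 on the plus strand, just downstream of Gsto1. Gsto1 had 102 FPKM with ALA and 97.3 FPKM untreated (0.07). The omega genes share no read-length stretch. In the theta class Gstt3, with 13.3% of its stretches shared, mainly with Gm20441, had 9.83 FPKM with ALA and 8.45 FPKM untreated (0.20).

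**Figure D3:**
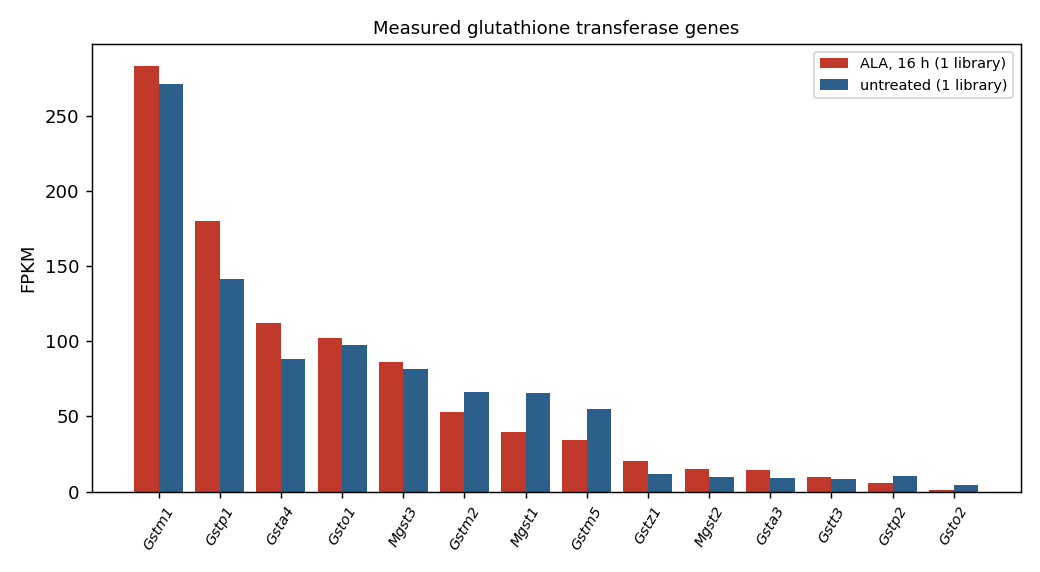
FPKM of the 14 measured glutathione transferase genes in the ALA library (red, left of each pair) and the untreated library (blue), 1 library each, from a linear axis at 0. Gstm1 and Gstp1 are the tallest in both libraries, while Gstm5 and Mgst1 are lower with ALA.

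The membrane-bound transferases form a separate protein family that shares only the reaction. Mgst1, of the endoplasmic reticulum and outer mitochondrial membrane, had 39.4 FPKM with ALA and 65.7 FPKM untreated, a log2 ratio of -0.73 (counting interval -0.82 to -0.63), and shares no read-length stretch with another gene. Mgst2, which can make leukotriene C, had 14.7 FPKM with ALA and 9.72 FPKM untreated (0.55, 0.24 to 0.86). Mgst3 had 86.3 FPKM with ALA and 81.4 FPKM untreated (0.08). Mgst1 thus stood at 0.456 of Mgst3 with ALA and 0.808 untreated.

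Nqo1, Osgin1 and Ephx1 differed little, and none reached 1.5-fold. Nqo1, a quinone reductase and a standard NRF2 target, had 242 FPKM with ALA and 203 FPKM untreated (log2 ratio 0.25, counting interval 0.21 to 0.29). Ephx1, the microsomal epoxide hydrolase, had 204 FPKM with ALA and 218 FPKM untreated (-0.10). Osgin1, a growth inhibitor induced by oxidative stress, had 9.28 FPKM with ALA and 9.64 FPKM untreated, and its log2 ratio of -0.05 changed sign with the libraries scaled to the same total.

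Some members were grouped by the compartment of the protein, a grouping made after the values were seen. The 12 taken as cytosolic were Gclc, Gclm, Gss, Gpx1, Prdx1, Prdx2, Prdx6, Srxn1, Txn1, Txnrd1, Glrx and Sod1. They had 9 log2 ratios above 0 and 3 below, with a median of 0.21, while 47.8% of all measured genes were above 0. The 6 taken as mitochondrial (Prdx3, Prdx5, Txn2, Txnrd2, Glrx2 and Sod2) had 5 above 0 and 1 below, with a median of 0.26. Their summed level was nevertheless 391 FPKM with ALA and 460.3 FPKM untreated, with Prdx5 at 149 FPKM with ALA and 254 FPKM untreated. The lower sum came from Prdx5 alone, as each of the others was higher with ALA. Prdx5 was placed here although its product is also found in peroxisomes and cytosol. The 3 genes placed in the endoplasmic reticulum, Gpx7, Gpx8 and Prdx4, had a median of 0.01 and summed to 212 FPKM with ALA and 214 FPKM untreated. Mgst1 and the microsomal Ephx1, also of that compartment, are not in this set. Gsr, whose product is found in both cytosol and mitochondria, was not placed. Nor were Gpx4, Txnrd3, Txnip, Cat, Sod3, Nqo1, Osgin1, Ephx1 and all transferases, so the medians describe the placed genes and not whole compartments. The 11 measured soluble transferases had 7 log2 ratios above 0 and 4 below, with a median of 0.07. The 5 selenoproteins among the measured members, Gpx1, Gpx4, Txnrd1, Txnrd2 and Txnrd3, had a median of 0.36, and of these 5 Gpx4 was the one below 0.

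**Figure D4:**
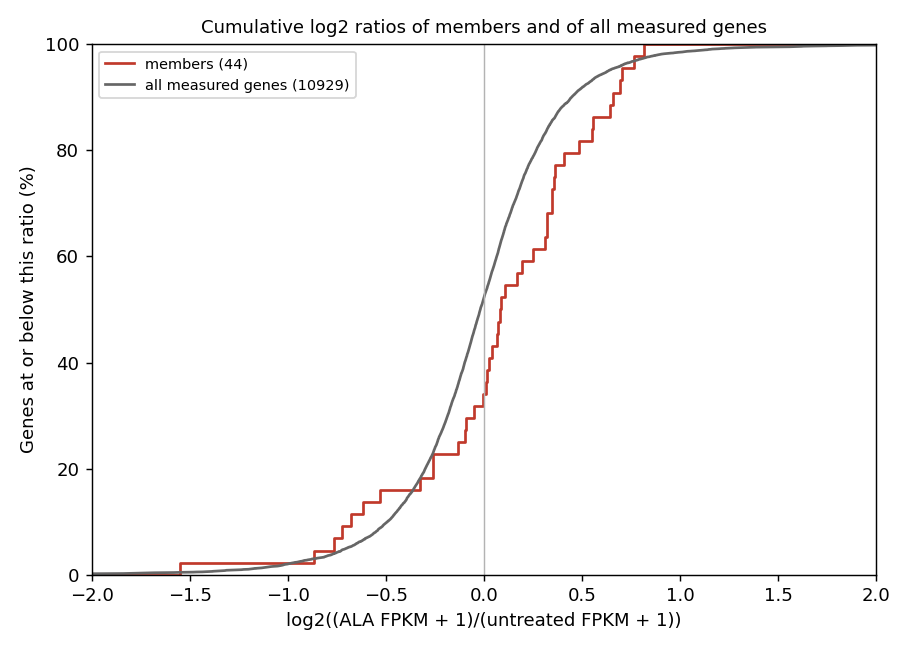
Cumulative share of genes at or below each log2 ratio, for the 44 measured members (red) and all 10929 measured genes (grey), 1 library per group. The red curve runs to the right of the grey one around its median (0.09 for members, -0.02 for all genes) and to the left of it where Glrx, Txnip, Gstm5, Mgst1 and Prdx5 lie, from -0.53 to -0.77.

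The interquartile range of log2 ratios was 0.46 for members and 0.44 for all measured genes, of which those at a mean of 1 to 5 FPKM had 0.70. At a mean of 20 to 400 FPKM, a range chosen after the values were seen, it was 0.52 for 31 members and 0.34 for 3920 genes. Restricted to a mean of at least 5 FPKM, 14.0% of 43 members were 1.5-fold higher and 11.6% lower, against 4.05% and 5.19% of 8607 genes.

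Neighbouring steps of the pathway were read from further gene lists. For comparison with their counts, 47.8% of all measured genes were above 0. The 1.5-fold mark was reached upward by 5.90% of all measured genes and downward by 7.16%. In lists this short, none or 1 such gene is not set apart from those shares. Of 9 measured genes for cystine uptake and glutathione breakdown or export, 8 were above 0 and 1 below, and none was 1.5-fold apart. The cystine transporter gene Slc7a11 had 13.3 FPKM with ALA and 11.2 FPKM untreated, and the largest log2 ratio, 0.43, was that of the exporter gene Abcc4, with 9.97 FPKM with ALA and 7.15 FPKM untreated. For NADPH supply, 6 of 9 measured genes were above 0 and 1 was at least 1.5-fold higher, Nadk2, the mitochondrial NAD kinase, with 18.6 FPKM with ALA and 11.7 FPKM untreated. In glutathione-dependent aldehyde removal, 1 of 4 genes was above 0, none was 1.5-fold apart, and Hagh, which releases glutathione from lactoylglutathione, had 21.5 FPKM with ALA and 29.0 FPKM untreated (log2 ratio -0.41). Of 13 other thioredoxin-fold genes none was 1.5-fold apart, with Txndc11 at 0.57 the farthest from 0.

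The methionine sulfoxide reductases, which depend on thioredoxin, differed in opposite directions. Msra had 9.52 FPKM with ALA and 5.10 FPKM untreated (log2 ratio 0.79). Msrb1 had 61.0 FPKM with ALA and 103 FPKM untreated (-0.74), and the mitochondrial Msrb2 had 2.70 FPKM with ALA and 7.60 FPKM untreated (-1.22). These were the only genes of the 8 measured in that list, which also held the sestrins and Park7, at least 1.5-fold apart. Of 8 measured genes that load selenocysteine, Sepsecs, which makes selenocysteine on its transfer RNA, had 8.31 FPKM with ALA and 4.22 FPKM untreated (0.84). Pstk, the kinase of the step before it, had 4.75 FPKM with ALA and 11.7 FPKM untreated (-1.15). Of the 8 NRF2 and BACH1 regulators 7 were below 0, beside 52.2% of all measured genes, with Nfe2l2, which encodes NRF2, at -0.22 and Bach1 at -0.18. The small MAF gene Mafk was above 0, with 9.57 FPKM with ALA and 6.79 FPKM untreated (0.44), while the small MAF gene Maff was 3.31-fold lower at 6.32 FPKM with ALA and 20.9 FPKM untreated.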

How the data were processed

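The mRNA-seq libraries of 1 ALA-treated and 1 untreated NIH3T3 culture were made with the Illumina TruSeq RNA kit and read as 41-bp single-end reads, per the labels' protocols. The authors deposited FPKM per gene in the layout Cufflinks writes. FastQC 0.11.5, TopHat2 2.1.1 and Cufflinks 2.2.1 on mm10 are named in the submitters' processing notes, without roles. Not given in the sources used here are the annotation, options, strand setting and scaling of libraries, so reads of genes on opposite strands cannot be told apart.

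FPKM do not suit count models, and none was fitted. Log2 ratios used a pseudocount of 1 FPKM, and medians and numbers of genes were taken over those averaging 1 FPKM or more. Depth was fitted as the number of reads at which FPKM times length came nearest to whole reads, in genes with 1 transcript of over 1500 bp. The fit was loose. Its mean cosine, 1 if all values fell on whole reads, was 0.277 with ALA (219 genes) and 0.309 untreated (152 genes). Taking 0 to 200 bases off the length gave 31400000 to 34100000 reads with ALA and 22100000 to 23700000 untreated, so the depth is approximate. Approximate reads used the shortest transcript matched to a RefSeq mRNA, and intervals cover counting error only. Where that model reaches beyond the deposited region, as for Gclm, the reads may be overstated and the interval too narrow. The depth fit and the 1.5-fold count were run on simulated reads with counting error only and 2-fold changes in genes of at least 5 FPKM. This setting is easier than the data and holds no variation between cultures.

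All 58 members matched a GENCODE vM21 gene of GRCm38, the assembly that mm10 names. Shared sequence is the share of a gene's 41-base stretches found exactly, on either strand, in transcripts of other genes. RefSeq promoters were matched by symbol for 52 members. Every measured member is named, as are, of each other list, the genes at least 1.5-fold apart or else the one farthest from 0, and genes sharing 10% of a member's sequence. Slc7a11, Nfe2l2, Mafk and Bach1 were named outside that rule, after their values were seen. The grouping by compartment, the 20 to 400 FPKM range and the plain-ratio alternative were added after the values were seen. Members and lists were chosen with earlier results of these data known. Python 3.11.15, numpy 2.4.6 and pandas 2.3.3 were used.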

Additional observations from a re-analysis of the deposited data

How the results depend on the processing

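Of the 12 members at least 1.5-fold apart, all kept their direction with a pseudocount of 0.1 or 5, with equal library totals and with ratios centred on the median gene. Summed with the main gene it shares sequence with, Gstp2 reversed to 0.29, and Gss at 0.49 and Prdx5 at -0.56 no longer reached 1.5-fold. Acss2 shares 4.62% of the stretches of Gss, and Trmt112 16.2% of those of Prdx5. Adding a whole gene draws the ratio towards that of the added gene, so these sums cannot tell how shared reads were assigned. The count of members 1.5-fold higher, 6, was 3 with a pseudocount of 5, where Glrx2, Gpx7 and Gsta3 fell short, and 0 at 2-fold. The count of lower members, 6, was 1 at 2-fold and 2 among the 31 members with under 10% shared or overlapping sequence, of which 4 were higher, and the share over all genes was not computed there. Over all measured genes, 645 higher and 782 lower became 194 and 299 with a pseudocount of 5, and 349 and 447 among genes averaging 5 FPKM or more. The plain FPKM ratio, chosen after seeing the data, gave 7 higher and 6 lower members, beside 8.30% and 9.74% of all measured genes.

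With equal totals the median of all members was 0.16. Role medians then were 0.57 for glutathione synthesis and reduction, 0.14 for glutathione peroxidases, 0.12 for peroxiredoxins with sulfiredoxin, 0.30 for the thioredoxin system, 0.17 for dismutases and catalase and 0.15 for soluble transferases. The median of Nqo1, Osgin1 and Ephx1 was then 0.02, in place of -0.05. Without members of at least 10% shared sequence, the medians were 0.32 for glutathione synthesis and reduction, 0.33 for peroxiredoxins with sulfiredoxin, 0.36 for the thioredoxin system and 0.01 for dismutases and catalase. A pseudocount of 5 gave 0.15 for the thioredoxin system and turned the glutaredoxin median, 0.09, to -0.01, and with no filter the glutathione peroxidase median was 0.0.

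Among the other lists, a pseudocount of 5 left 0 higher genes for NADPH supply, 0 for methionine sulfoxide reductases and sestrins and 0 for selenocysteine machinery, in place of 1 each. The count of higher thioredoxin-fold genes, 0, became 1 with a pseudocount of 0.1 or with centring and 2 with equal totals. With no filter 2 selenocysteine genes were lower, in place of 1. The cause of these changes was not tested. No paired analysis was possible because each group has 1 library.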
